A study of Mus musculus with 22 samples.

Results

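The expression of 10 genes of the circadian clock was followed in fibroblasts sorted from mouse skin after the insertion of a tissue expander. The members were Clock, Per1, Per2, Per3, Cry1, Cry2, Nr1d1, Nr1d2, Dbp and Tef, taken from the deposited count table by the Ensembl identifiers that GENCODE M21 pairs with these symbols. All 10 were found among the 55414 genes of the table, and all 10 were among the 17554 genes that passed the filter on low counts and entered the tests. Every mouse had surgery on the back skin. EXP mice had a hydrogel expander placed under the skin near the neck, whereas CTRL mice had the surgery with no expander. Skin was taken on day 1, day 2 or day 4. The CTRL and EXP arms held 4 and 5 libraries on day 1, 3 and 3 on day 2, and 4 and 3 on day 4, for 22 libraries in 6 groups. The labels give no strain, genotype, age, sex or hour of collection, and they describe no transgene and no difference in genotype between the arms. Cells bearing CD31, CD45, CD117 or EpCAM were sorted out, and the fibroblasts were the DAPI-negative cells with both CD34 and PDGFRα. Libraries are numbered within a group in the labels, which do not say that each number is a separate mouse, so p-values measure the spread between these libraries.

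The mammalian clock is a feedback loop of transcription. CLOCK, paired with BMAL1 (gene Arntl), binds E-box sequences and switches on the Per and Cry genes, whose proteins enter the nucleus and repress the same pair, while the nuclear receptors REV-ERBα (Nr1d1) and REV-ERBβ (Nr1d2) repress Arntl through RORE sequences. DBP and TEF, transcription factors of the PAR-bZIP family, are outputs of the loop and act through D-box sequences, which also occur in clock genes such as Per3. Fibroblasts carry this clock in culture and in tissue, and the level of most of these genes depends on the hour at which a tissue is taken.

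The promoters of the Per and Cry genes that differed most between the arms are shown first, because the loop acts through short words in them. The windows are the 250 bases before the annotated start site in RefSeq (build GRCm38.p6), read 5′ to 3′ along the gene, and capitals mark each match to a clock-related word. They lie at chr11:69098699-69098948 on the plus strand for Per1 and at chr10:85185055-85185304, chr2:92434070-92434319 and chr4:151044666-151044915 on the minus strand for Cry1, Cry2 and Per3.
Per1: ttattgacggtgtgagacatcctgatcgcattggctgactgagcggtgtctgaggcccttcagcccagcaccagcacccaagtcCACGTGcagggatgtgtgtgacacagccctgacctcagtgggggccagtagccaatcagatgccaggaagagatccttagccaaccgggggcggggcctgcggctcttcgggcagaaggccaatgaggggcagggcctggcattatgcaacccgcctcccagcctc
Cry1: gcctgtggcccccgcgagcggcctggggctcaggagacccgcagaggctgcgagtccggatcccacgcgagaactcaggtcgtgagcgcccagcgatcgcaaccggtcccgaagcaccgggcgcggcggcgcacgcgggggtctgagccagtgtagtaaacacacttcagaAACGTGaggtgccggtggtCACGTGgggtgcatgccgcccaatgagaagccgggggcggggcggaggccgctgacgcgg
Cry2: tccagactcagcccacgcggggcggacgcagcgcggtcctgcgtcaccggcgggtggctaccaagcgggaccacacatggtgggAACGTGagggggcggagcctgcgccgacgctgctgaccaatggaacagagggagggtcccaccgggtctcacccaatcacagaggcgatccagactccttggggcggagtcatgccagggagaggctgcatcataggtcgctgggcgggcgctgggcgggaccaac
Per3: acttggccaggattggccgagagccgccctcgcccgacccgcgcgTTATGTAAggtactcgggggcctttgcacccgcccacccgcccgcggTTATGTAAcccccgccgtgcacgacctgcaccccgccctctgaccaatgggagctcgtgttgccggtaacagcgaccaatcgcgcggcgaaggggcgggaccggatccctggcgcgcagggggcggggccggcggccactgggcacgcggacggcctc
The words searched on both strands were the E-box CACGTG, the E-prime box CACGTT, the D-box as TTACATAA, TTACGTAA, TTATATAA or TTATGTAA, the RORE, and the cyclic AMP response element (CRE) TGACGTCA. RefSeq gives Per1 2 start sites. The window of the first, printed above, held an E-box 166 to 161 bases before the start, and that of the second, at chr11:69099902-69100151, held none of the words. Cry1 held an E-box at 60 to 55 bases and an E-prime box, read on the other strand as AACGTG, at 79 to 74 bases. Cry2 held an E-prime box at 166 to 161 bases, also on the other strand. Per3 held 2 D-boxes, at 205 to 198 and at 158 to 151 bases, and was the only searched member with a D-box in its window. Among the members whose sequences are not printed, Tef held an E-box at each of its 2 start sites and Nr1d1 an E-prime box at 28 to 23 bases. Of 32851 RefSeq windows of this length, 6.02% held the E-box, 3.85% the E-prime box, 1.43% a D-box, 0.35% a RORE and 1.55% the CRE. RefSeq windows were matched for 9 of the 10 members, with 13 start sites between them, and none of these 13 windows held the RORE or CRE words. Per2 had no matched window and was not searched. A match is a description of these letters and not evidence of binding.

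Levels are given as CPM, counts relative to the TMM-scaled size of each library, and each library is one measurement. The cell type markers and the detection floor are instead given as CPM of the library total, without TMM. Library totals lay between 21461294 and 30210204 counts, and the detection floor of 3 counts corresponded to 0.0993 to 0.140 CPM. The sort markers matched the labels, with Pdgfra at 185 to 1292 CPM and Cd34 at 274 to 2144 CPM, whereas Pecam1, Ptprc, Kit and Epcam, which encode the excluded antigens, stayed at or below 3.76, 0.248, 0.752 and 1.89 CPM. The libraries also divided within some of the groups. A set of 191 genes that varied with Rnf10 once group means were removed placed 7 libraries on a high side and 15 on a low side, with a gap from 4.15 to 4.79 in their mean log2 CPM. The high side held CTRL replicates 1, 2 and 3 and EXP replicates 1 and 2 of day 1, and CTRL replicates 3 and 4 of day 4. No library of day 2 and no EXP library of day 4 was on it. Group means were removed to choose the genes, but not from the mean that placed the libraries. The side is therefore partly confounded with day and arm. For results that move with this division, the values with its side as a covariate, or within a side, are given too. They cannot fully part the side from the groups.

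Most differences between the arms that passed the test came on day 4, and each one on any day was a lower level in EXP. On day 1 only Dbp was called, on day 2 only Cry2, and on day 4 Clock, Per1, Cry1 and Cry2. No member was called higher on any day, and Per2, Per3, Nr1d1, Nr1d2 and Tef, 5 of 10, were called on none, beside 55.7% of all genes. Calls required an adjusted p under 0.05 in edgeR's quasi-likelihood F-test, with Benjamini-Hochberg adjustment over all 17554 genes. Among all genes tested, 28.5% were called on day 1, 13.5% on day 2 and 22.6% on day 4, and those called lower were 14.9%, 5.62% and 8.96%, leaving 13.6%, 7.85% and 13.6% called higher. The counts of 1 of 10 members on days 1 and 2 were thus near or below the share of all genes, and the 4 of 10 called lower on day 4 lay above it. The median log2 fold change of the 10 members, EXP minus CTRL, was -0.11 on day 1, -0.32 on day 2 and -0.45 on day 4, beside 0.01, 0.03 and 0.06 over all genes tested, and 7 of 10 were negative on each day. These values rest on TMM, since with library totals in its place the median of all genes was 0.21, 0.49 and 0.36. In bulk RNA of a sorted population, fewer cells that express a gene and less of its RNA per cell cannot be told apart. Since the hour of collection is not in the labels, a difference in hour between the arms of a day cannot be told apart from an effect of the expander.

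**Figure D1:**
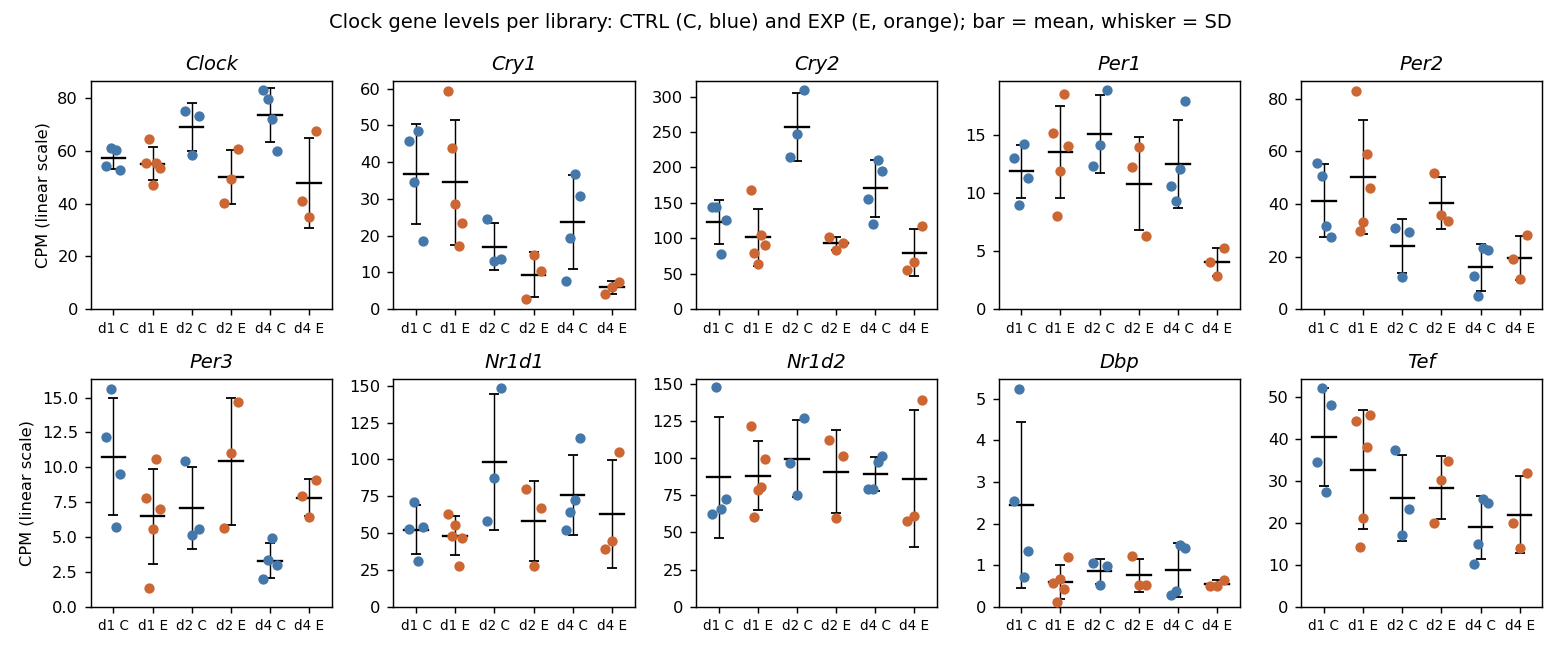
CPM of the 10 clock genes in each of the 22 libraries on linear axes starting at 0, by day (d1, d2, d4) and arm (C for CTRL in blue, E for EXP in orange), with the group mean as a bar and the SD as whiskers. Per1 lies at 2.88 to 5.25 CPM in the day 4 EXP libraries, below every other library, and Cry2 at 83.3 to 101 CPM in the day 2 EXP libraries against 214 to 309 CPM in CTRL.

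Clock encodes the DNA-binding partner of BMAL1. Its level ran from 35.0 to 82.9 CPM over the 22 libraries, a 2.37-fold range. On day 4 it measured 82.9, 79.7, 72.2 and 60.0 CPM in CTRL and 41.0, 35.0 and 67.4 CPM in EXP. EXP replicate 3 lay inside the CTRL range, so the groups overlapped, although the other 2 EXP libraries were below every CTRL library. The means were 73.7 ± 10.2 (SD, n = 4) and 47.8 ± 17.2 (SD, n = 3), and Clock fell by 0.62 on the log2 scale (adjusted p = 0.0282, SE 0.20), which is 1.54-fold. On day 2 the log2 fold change was -0.46 (adjusted p = 0.148, SE 0.21), and on day 1 it was -0.05 (adjusted p = 0.848, SE 0.17). The day 4 call was lost on leaving out CTRL replicate 1 (adjusted p = 0.0631), CTRL replicate 2 (0.0563), EXP replicate 1 (0.121) or EXP replicate 2 (0.166), and with library totals in place of TMM (log2 fold change -0.35, adjusted p = 0.141). It was also lost with no filter on low counts (adjusted p = 0.0508), with the libraries of that day only (0.120) and with low-side libraries only (log2 fold change -0.77, adjusted p = 0.0821).

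Per1, a light- and stimulus-responsive repressor of CLOCK and BMAL1, had its lowest levels of the series in the EXP libraries of day 4. On day 4 it measured 10.6, 9.30, 12.1 and 17.9 CPM in CTRL and 4.05, 2.88 and 5.25 CPM in EXP. Every EXP library was below every CTRL library, and the highest EXP value was also below the 6.26 CPM that was the lowest level in all other libraries. Per1 fell by 1.62 on the log2 scale (adjusted p = 0.00218, SE 0.32), a 3.07-fold lower level, from 12.5 ± 3.79 (SD, n = 4) to 4.06 ± 1.18 (SD, n = 3). The call held under each of the 19 alternatives run for it, including those that left out a library of the day and the fit to low-side libraries only.

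Per1 was not called between the arms on days 1 and 2. On day 1 the libraries measured 13.0, 8.94, 14.2 and 11.3 CPM in CTRL and 15.2, 7.99, 11.9, 18.5 and 14.1 CPM in EXP, with a log2 fold change of 0.19 (adjusted p = 0.634, SE 0.27). On day 2 they measured 12.3, 14.2 and 18.8 CPM in CTRL and 12.2, 13.9 and 6.26 CPM in EXP, with a log2 fold change of -0.48 (adjusted p = 0.353, SE 0.33). The arms overlapped on both days. The joint test of whether the EXP effect differed between days called Per1 (adjusted p = 0.0243) and none of the other 9 members, whose adjusted p ran from 0.106 for Per3 to 0.976 for Nr1d2. Of all genes tested, 8.64% were called in that comparison. The Per1 call was lost on leaving out CTRL replicate 4 (adjusted p = 0.0529) or EXP replicate 2 (0.0767) of day 4, and in the fit with the replicate number as a block (0.107).

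Per2, the second Period repressor, was not called between the arms on any day. On day 2 it measured 30.7, 12.1 and 29.2 CPM in CTRL and 51.8, 35.7 and 33.6 CPM in EXP. The EXP libraries were all above the CTRL libraries, but the log2 fold change of 0.75 (adjusted p = 0.347, SE 0.50) was not called. On day 1 the mean was 41.3 ± 13.9 CPM (SD, n = 4) for CTRL, while EXP had 50.2 ± 21.7 CPM (SD, n = 5). On day 4 CTRL had 15.9 ± 8.82 CPM (SD, n = 4), while EXP had 19.5 ± 8.40 CPM (SD, n = 3), and the arms overlapped on both of these days. The 95% intervals of the log2 fold change, -0.57 to 1.14 on day 1 and -0.67 to 1.27 on day 4, included 0.

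Per3, the third Period gene, went the other way from Per1 on day 4, without passing the test. It measured 1.98, 3.37, 4.93 and 2.98 CPM in CTRL and 7.94, 6.43 and 9.08 CPM in EXP, and no EXP library fell within the CTRL range. The log2 fold change was 1.23 (adjusted p = 0.0688, SE 0.48), with a 95% interval of 0.23 to 2.24. DESeq2 put it past the threshold (adjusted p = 0.0475), as did library totals without TMM (0.0206). On day 1 Per3 measured 12.2, 15.6, 5.69 and 9.54 CPM in CTRL and 7.83, 1.33, 5.61, 10.6 and 6.99 CPM in EXP. The arms overlapped there, and the log2 fold change was -0.73 (adjusted p = 0.201, SE 0.42).

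Cry1 and Cry2 encode the cryptochromes, the partners of the PER proteins and the strongest repressors of the loop. Cry2 was called lower on 2 days, which makes 1 of 10 members beside 5.53% of all genes. On day 2 it measured 214, 246 and 309 CPM in CTRL and 101, 83.3 and 93.7 CPM in EXP. The groups were apart, with every EXP library below every CTRL library. Cry2 fell by 1.47 on the log2 scale (adjusted p = 0.00588, SE 0.33), a 2.76-fold lower level, from 256.5 ± 48.0 (SD, n = 3) to 92.8 ± 9.07 (SD, n = 3). This call held under all 18 alternatives run for it. All 6 libraries of day 2 were on the low side of the library division.

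Cry2 was lower again on day 4, with 155, 120.4, 210.4 and 195 CPM in CTRL and 55.3, 66.9 and 117 CPM in EXP. The groups did not overlap, although EXP replicate 3 came close to CTRL replicate 2. The fall was 1.09 on the log2 scale (adjusted p = 0.0160, SE 0.31), or 2.14-fold. Leaving out EXP replicate 1 (adjusted p = 0.0847) or EXP replicate 2 (0.0785) ended the call, and among the low-side libraries the log2 fold change was -0.79 (adjusted p = 0.115). It also missed the threshold with the side of the division as a covariate (log2 fold change -0.88, adjusted p = 0.0548) and with the libraries of that day only (0.0611). On day 1 Cry2 measured 144, 144, 78.0 and 126 CPM in CTRL and 168, 79.0, 63.3, 105 and 90.2 CPM in EXP, overlapping, with a log2 fold change of -0.28 (adjusted p = 0.455, SE 0.26). The EXP effect on Cry2 was not called as differing between days (adjusted p = 0.131). In M21, Cry2 shares exon sequence with D930015M05Rik on the opposite strand, which did not exceed 0.760 CPM.

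Cry1 had the greatest log2 fold change of the members on day 4, and also the closest relation to the library division. It measured 7.68, 19.4, 36.8 and 30.8 CPM in CTRL and 4.16, 6.08 and 7.47 CPM in EXP on that day. The EXP libraries were all below CTRL, but CTRL replicate 1 stood only just above EXP replicate 3. Cry1 fell by 2.01 on the log2 scale (adjusted p = 0.0178, SE 0.57), a 4.02-fold lower level, from 23.7 ± 12.9 (SD, n = 4) to 5.90 ± 1.66 (SD, n = 3). The 2 highest CTRL values came from replicates 3 and 4, the high-side libraries of that day. With low-side libraries only, Cry1 had a log2 fold change of -1.20 (adjusted p = 0.212), and with the side of the division as a covariate it had -1.25 (adjusted p = 0.0532). The call was also lost without CTRL replicate 3 (adjusted p = 0.0516), EXP replicate 1 (0.0899) or EXP replicate 2 (0.0663), with limma voom (0.162), with no filter on low counts (0.0517), with the libraries of that day only (0.0500017) and with the replicate block (0.0586).

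Over the 22 libraries, the log2 CPM of Cry1 and the mean of the 191 genes correlated at r = 0.90, and at r = 0.86 after group means were removed. For the other 9 members the second value did not exceed 0.43. This relation is a description, since all values of a library share its RNA and its sequencing. On day 1 the high-side CTRL libraries had 34.7 to 48.4 CPM of Cry1 and the low-side one 18.6 CPM, and the high-side EXP libraries had 43.7 to 59.2 CPM and the low-side ones 17.2 to 28.7 CPM. Cry1 thus differed more between sides than between arms on day 1, where the log2 fold change was -0.10 (adjusted p = 0.899, SE 0.46). On day 2 the CTRL libraries measured 24.5, 13.1 and 13.5 CPM and the EXP libraries 2.83, 14.8 and 10.4 CPM, overlapping, with a log2 fold change of -0.87 (adjusted p = 0.346, SE 0.58). What sets the 2 sides apart was not tested.

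**Figure D2:**
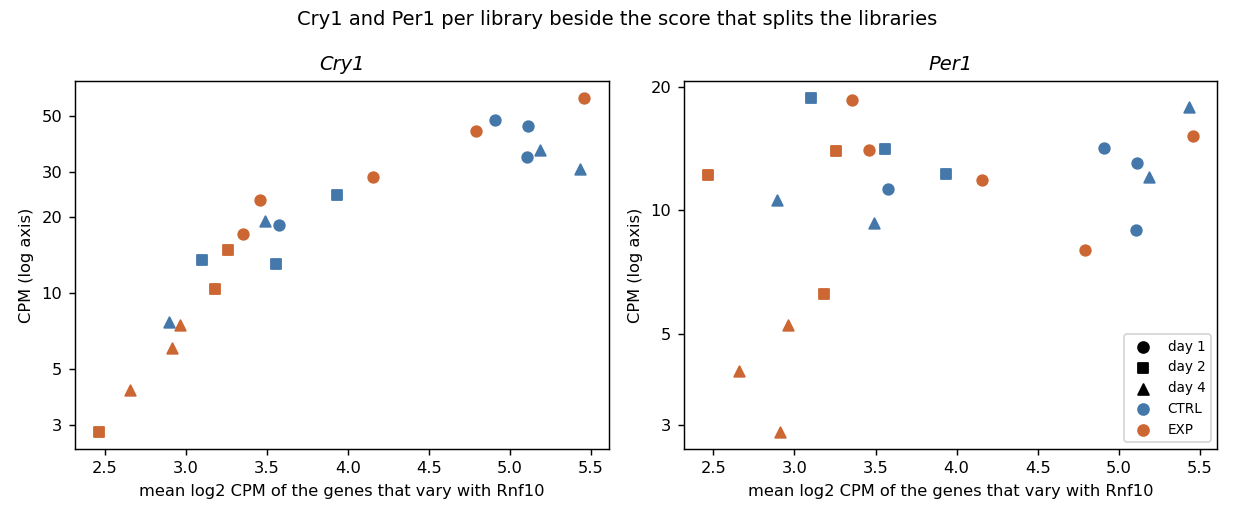
CPM of Cry1 (left) and Per1 (right) on log axes against the mean log2 CPM of the 191 genes that vary with Rnf10, with 1 point per library, the day as the symbol and the arm as the colour. Cry1 rises along the horizontal axis (r = 0.90), whereas the 3 EXP libraries of day 4 lie lowest for Per1, below low-side CTRL libraries of the same day.

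Nr1d1 and Nr1d2, which encode the REV-ERB repressors of Arntl, were not called between the arms on any day. Nr1d2 had a log2 fold change of 0.02 (95% interval -0.59 to 0.62) on day 1, -0.13 (-0.87 to 0.61) on day 2 and -0.05 (-0.75 to 0.64) on day 4, and with library totals in place of TMM its sign on days 2 and 4 turned (0.37 and 0.18). Its 6 group means lay between 86.2 and 99.6 CPM. Nr1d1 had log2 fold changes of -0.12 (SE 0.36) on day 1, -0.75 (SE 0.44) on day 2 and -0.27 (SE 0.42) on day 4, with adjusted p of 0.841, 0.287 and 0.675. Single libraries spread widely. On day 2 Nr1d1 measured 58.1, 87.2 and 149 CPM in CTRL and 79.8, 27.8 and 67.1 CPM in EXP, with the arms overlapping. Nr1d1 shares exon sequence with Thra on the opposite strand in M21, and Thra reached 31.9 CPM, so part of either count is uncertain if reads were not assigned by strand.

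Dbp, a PAR-bZIP output factor under direct E-box control, was close to the detection floor here, at 0.118 to 5.23 CPM. On day 1 it measured 2.54, 5.23, 0.720 and 1.35 CPM in CTRL and 0.584, 0.118, 0.660, 0.422 and 1.21 CPM in EXP. The arms overlapped, and EXP replicate 2 was at the floor with 3 counts. Dbp fell by 2.03 on the log2 scale (adjusted p = 0.0154, SE 0.60), a 4.07-fold lower level. The call depended on CTRL replicate 2, without which the log2 fold change was -1.35 (adjusted p = 0.114), and on the library division, within which it was -2.98 on the high side (adjusted p = 0.0515) and -0.82 on the low side (adjusted p = 0.596), and with which as a covariate it was -1.67 (adjusted p = 0.0757). Sphk2, which overlaps Dbp exons on the opposite strand in M21, reached 10.9 CPM, more than any Dbp value, so the Dbp count is uncertain if strand was not used.

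On days 2 and 4 Dbp was not called. On day 2 CTRL had a mean of 0.854 ± 0.295 CPM (SD, n = 3), while EXP had 0.755 ± 0.399 CPM (SD, n = 3). On day 4 CTRL had 0.887 ± 0.640 CPM (SD, n = 4), while EXP had 0.552 ± 0.0908 CPM (SD, n = 3). Tef, the other PAR-bZIP factor, was not called on any day, with log2 fold changes of -0.31 (95% interval -1.04 to 0.43), 0.13 (-0.77 to 1.03) and 0.21 (-0.63 to 1.05) on days 1, 2 and 4. On day 4 Tef measured 10.1, 15.0, 25.7 and 24.7 CPM in CTRL and 19.9, 14.1 and 31.9 CPM in EXP, and the arms overlapped. Its antisense partner in M21, Gm17597, did not exceed 0.107 CPM.

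**Figure D3:**
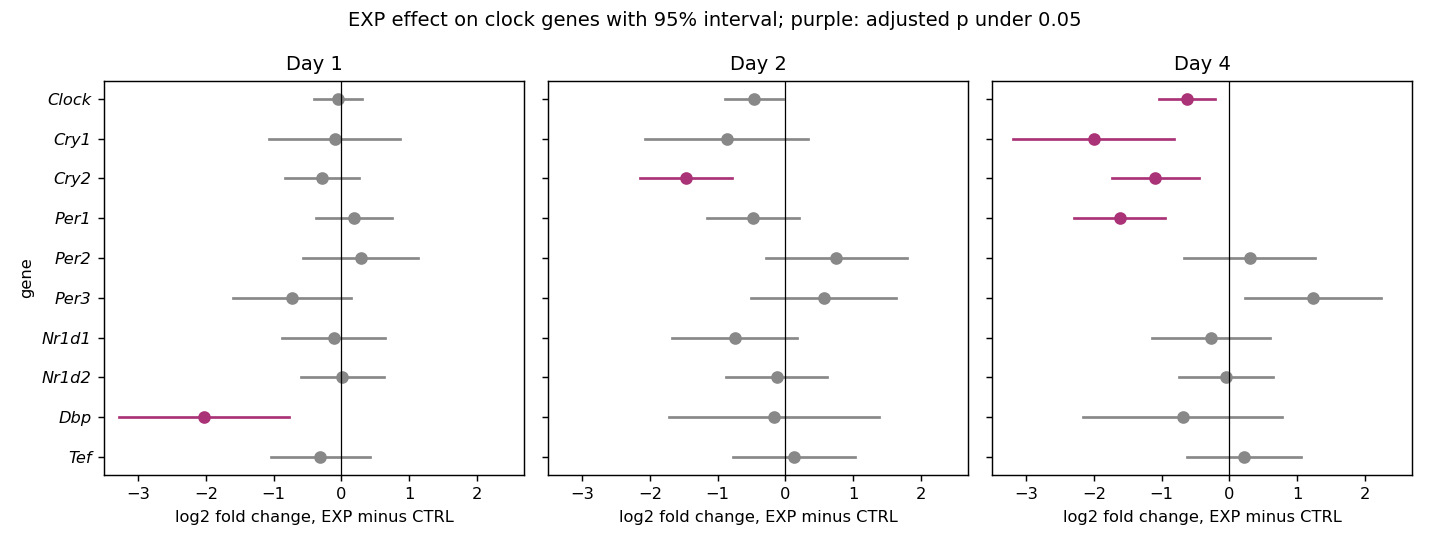
Log2 fold change, EXP minus CTRL, of the 10 members on days 1, 2 and 4 with 95% intervals, in purple where the adjusted p was under 0.05. On day 4 Clock, Per1, Cry1 and Cry2 lie left of 0, and Per3 lies right of 0 at 1.23 without being called.

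The members with no overlap between the arms were not the same as those called. On day 4 the EXP libraries were below all CTRL libraries for Per1, Cry1 and Cry2 and above them for Per3, which is 4 of 10 members beside 25.9% of all genes tested. Genes with EXP below CTRL throughout made up 10.8% of all genes on that day. On day 2 the arms were apart for Cry2 (lower) and Per2 (higher), beside 39.3% of all genes. Genes with EXP below CTRL throughout made up 18.1% of all genes on day 2. No member was free of overlap on day 1, beside 23.9% of all genes. EXP was below CTRL throughout in 12.5% of all genes on that day. With 3 to 5 libraries in a group, such separation is common in these data.

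Members were next compared across days within each arm. Libraries of different days were separate samples, and day, hour of collection and handling cannot be told apart. In CTRL, 0 of 10 members were called as changing over days by edgeR, beside 0.302% of all genes called. At an unadjusted p under 0.05 there were 5 members. How many of all genes passed that unadjusted threshold was not counted, here or for the steps between days below. limma voom called Cry2 (adjusted p = 0.0236) and DESeq2 called Per3 (adjusted p = 0.0403). In EXP, Per1 (adjusted p = 0.00274) and Cry1 (adjusted p = 0.00551) were called, beside 14.1% of all genes. From day 1 to day 4 in EXP, 3 of 10 members were called, all lower, beside 18.8% of all genes called, 6.35% lower and 12.4% higher. Per1 fell by 1.74 on the log2 scale (adjusted p = 0.000751, SE 0.31). Cry1 fell by 2.55 (adjusted p = 0.00475, SE 0.57) and Per2 fell by 1.36 (adjusted p = 0.0474, SE 0.47). Day 1 EXP held 2 high-side libraries and day 4 EXP none. With the side as a covariate, Per1 had -1.71 (adjusted p = 0.00138) and Cry1 -1.94 (adjusted p = 0.00381), both called, while Per2 had -1.07 and was not called (adjusted p = 0.0912). No member was called by edgeR from day 1 to day 2 in EXP, beside 2.81% of all genes, or from day 2 to day 4, beside 0.444%, where 1 and 2 members had an unadjusted p under 0.05. DESeq2 called Cry1 in the first of these (adjusted p = 0.00516) and Per1 in the second (adjusted p = 0.00558).

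The same steps in CTRL gave 0 of 10 calls by edgeR from day 1 to day 2, from day 2 to day 4 and from day 1 to day 4, beside 0.313%, 0.0057% and 0.16% of all genes. At an unadjusted p under 0.05 there were 3, 1 and 4 members, with no matching share of all genes counted. DESeq2 called Cry2 in the first step (adjusted p = 0.0300) and Per3 in the last (adjusted p = 0.0157). limma voom called Cry2 in the first step (adjusted p = 0.0103) and Per2 in the last (log2 difference -1.76, adjusted p = 0.0446). By edgeR, Per2 had a log2 difference of -1.38 (adjusted p = 0.169, SE 0.44) from day 1 to day 4 in CTRL, which is as large as its fall in EXP, and the EXP effect on Per2 was not called as differing between days (adjusted p = 0.851). The Per2 call in EXP was lost on leaving out replicate 1 (adjusted p = 0.115), 4 (0.0737) or 5 (0.0550) of day 1, or replicate 1 (0.123) or 2 (0.208) of day 4, and with no filter on low counts (0.121). For Per1 the joint test above called the difference, while for Cry1 it did not (adjusted p = 0.200). The CTRL libraries also had log2 differences of -1.69 for Per3 (adjusted p = 0.113, SE 0.46) and -1.10 for Tef (adjusted p = 0.199, SE 0.38) from day 1 to day 4. Cry2 had 1.06 (adjusted p = 0.120, SE 0.30) from day 1 to day 2 in CTRL, where its means were 123 ± 31.1 (SD, n = 4) and 256.5 ± 48.0 (SD, n = 3).

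The order of the group means, described with no test, placed the members in different patterns. Per1 was highest in day 2 CTRL at 15.1 CPM and lowest in day 4 EXP at 4.06 CPM, and only the step from day 2 EXP at 10.8 CPM down to day 4 EXP was wider than the SD of both neighbours. Cry2 descended from day 2 CTRL at 256.5 CPM through day 4 CTRL at 170.3 CPM to day 1 CTRL at 123 CPM, with both gaps wider than the SDs, and the 3 EXP groups followed at 101, 92.8 and 79.8 CPM without such a gap. Cry1 was highest in the day 1 groups, at 36.8 CPM in CTRL and 34.5 CPM in EXP, and lowest in day 4 EXP at 5.90 CPM. Its only gap wider than both SDs lay between day 2 CTRL at 17.0 CPM and day 2 EXP at 9.35 CPM. Per2 stood at 50.2, 41.3 and 40.4 CPM in day 1 EXP, day 1 CTRL and day 2 EXP, above a gap to the remaining 3 groups at 24.0 CPM and less. Clock had 1 such gap, between day 2 CTRL at 69.0 CPM and day 1 CTRL at 57.2 CPM. Neighbouring groups of Per3, Nr1d1, Nr1d2, Dbp and Tef did not differ beyond their SDs anywhere in the order.

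Ratios within a library, which do not depend on its scaling, showed how the Per genes parted, again as a description. The log2 ratio of Per2 to Per1 (CPM) lay between -0.93 and 0.95 in the day 4 CTRL libraries and between 1.97 and 2.42 in the EXP libraries. On day 2 it ran from -0.23 to 1.32 in CTRL and from 1.36 to 2.43 in EXP, so the arms were apart on both days. On day 1 it ran from 1.15 to 2.50 in CTRL and from 1.48 to 2.45 in EXP, overlapping. The log2 ratio of Per2 to Arntl ran from -3.22 to -2.13 in CTRL and from -1.14 to 0.14 in EXP on day 2, without overlap, but the arms overlapped on days 1 and 4. The log2 ratio of Nr1d1 to Arntl overlapped between the arms on all 3 days.

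CPM was also scaled to the merged length of all M21 exons of a gene, and not to the length of a transcript. The order of abundance among the members then differed from their CPM. The median over the 22 libraries was 18.8 CPM per kb of exon for Cry2, 18.5 for Nr1d1 and 14.8 for Nr1d2. It was 5.68 for Cry1, 5.14 for Per2, 4.31 for Clock, 3.36 for Tef and 2.15 for Per1. Per3 had 0.698 and Dbp 0.220 CPM per kb, the lowest of the set. On this scale, which depends on the annotated exons, the REV-ERB genes and Cry2 were the most abundant members, and Dbp was the least.

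Some libraries were high or low for many members at once. Replicate 3 of day 4 EXP was the highest of its group for 10 of 10 members in TMM-scaled CPM. The TMM factor was 0.909 for this library and 1.33 for replicate 1. In raw counts replicate 1 had more Per1 (152 against 144), Per3 (298 against 249) and Dbp (19 against 18), from a smaller library total. Col1a1, Col1a2 and Col3a1 counts made up 24.2% of the total of replicate 3. They made up 9.78% and 15.2% in replicates 1 and 2 and 20.6% to 27.9% in day 4 CTRL. Without replicate 3 of day 4 EXP, Clock, Per1, Cry1 and Cry2 were still called on day 4, with log2 fold changes of -0.95, -1.84, -2.21 and -1.48. Replicate 2 of day 1 CTRL was the highest of its group for 7 members, replicate 2 of day 1 EXP the lowest for 6, and replicate 2 of day 2 CTRL the lowest for 7. The share of all genes that were highest or lowest in each of these libraries was not counted. The part of collagen content or of these libraries in the clock results was not tested beyond leaving each library out.

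Summed markers of fibroblasts and of other cell types, in CPM of library totals without TMM, also differed between the arms. The summed CPM of 5 adipocyte markers (Adipoq, Plin1, Cidec, Cfd and Fabp4) was 57.4 to 462 in the EXP libraries of day 4 and 0.472 to 1.85 in the CTRL libraries. The sum of 4 endothelial markers was 20.8 to 52.8 in EXP and 3.53 to 7.89 in CTRL, with Tek alone reaching 45.8 CPM and Cdh5 not exceeding 0.603 CPM in the series. On day 2 the adipocyte sum was 8.55 to 111 in EXP and 0.200 to 2.80 in CTRL. The endothelial sum on day 2 was 2.01 to 8.50 in EXP and 0.160 to 0.652 in CTRL, and the sum of 5 melanocyte and mast cell markers was 19.3 to 39.5 in EXP and 4.40 to 10.8 in CTRL, both without overlap. The second of these sums is almost wholly Mlana, which reached 38.9 CPM in the series. Kit, Dct, Pmel and Cpa3 did not exceed 0.752, 0.445, 1.67 and 0.233 CPM. The haematopoietic sum, of 6 markers, overlapped between the arms on day 4, at 93.7 to 132 in EXP and 93.0 to 124 in CTRL. The sum of 7 fibroblast markers was lower in every EXP library than in every CTRL library on day 1, at 116267 to 173640 CPM against 218352 to 264117 CPM, and on day 2, at 85919 to 182161 CPM against 292896 to 327252 CPM. On day 4 the arms overlapped, at 109683 to 259638 CPM in EXP and 243969 to 307460 CPM in CTRL. This sum is largely Col1a1, Col1a2 and Col3a1, which made up 9.97% to 15.8% of all counts in day 1 EXP and 19.8% to 24.5% in day 1 CTRL. It does not show how Pdgfra, Cd34, Dcn and Lum differed between the arms. The part of these markers in the lower clock gene levels was not tested.

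Other genes of the clock, listed from general knowledge, were lower in EXP wherever they were called on days 2 and 4. Calls of these genes and of the lists that follow come from the main fit only, with no check against the library division or single libraries. Of 19 such genes, all of which were tested, 1 was called higher and 1 lower on day 1, 0 higher and 3 lower on day 2, and 0 higher and 7 lower on day 4. Of all genes, 28.5%, 13.5% and 22.6% were called on these days, 14.9%, 5.62% and 8.96% lower, so the day 1 count lay below the share of all genes. Their median log2 fold changes were -0.33, -0.40 and -0.74 on days 1, 2 and 4, beside 0.01, 0.03 and 0.06 over all genes. Arntl, which encodes BMAL1, measured 135, 113 and 129 CPM in CTRL and 47.1, 78.9 and 68.7 CPM in EXP on day 2, and 143, 152, 127 and 152 CPM in CTRL and 40.1, 82.3 and 111 CPM in EXP on day 4. The arms were apart on both days, and Arntl fell by 0.95 on the log2 scale on day 2 (adjusted p = 0.0361, SE 0.30) and fell by 0.88 on day 4 (adjusted p = 0.0290, SE 0.28). Rora, an activator of Arntl through the RORE, fell by 0.93 on day 2 (adjusted p = 0.00770, SE 0.22) and fell by 0.87 on day 4 (adjusted p = 0.00623, SE 0.21).

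Usp2, a clock-controlled deubiquitinase, was called on days 2 and 4. It measured 185, 129 and 179 CPM in CTRL and 42.2, 75.2 and 56.1 CPM in EXP on day 2, and fell by 1.51 on the log2 scale (adjusted p = 0.0106, SE 0.37). On day 4 Usp2 fell by 1.79 (adjusted p = 0.00231, SE 0.36), with no overlap on either day. Bhlhe40 (DEC1), an E-box repressor, fell by 0.72 on day 1 (adjusted p = 0.00681, SE 0.19) and by 0.61 on day 4 (adjusted p = 0.0489, SE 0.22). Nfil3, which represses through the D-box, fell by 1.42 on day 4 (adjusted p = 0.0130, SE 0.38). Hlf, the third PAR-bZIP factor, fell by 2.13 on day 4 (adjusted p = 0.0383, SE 0.72), at levels of 0.187 to 2.82 CPM near the floor. Npas2, a relative of Clock, Bhlhe41 (DEC2) and Ciart, a repressor, were not called on any day, with log2 fold changes on day 4 of -0.74, -1.68 and -1.04 and adjusted p of 0.509, 0.0689 and 0.167.

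**Figure D4:**
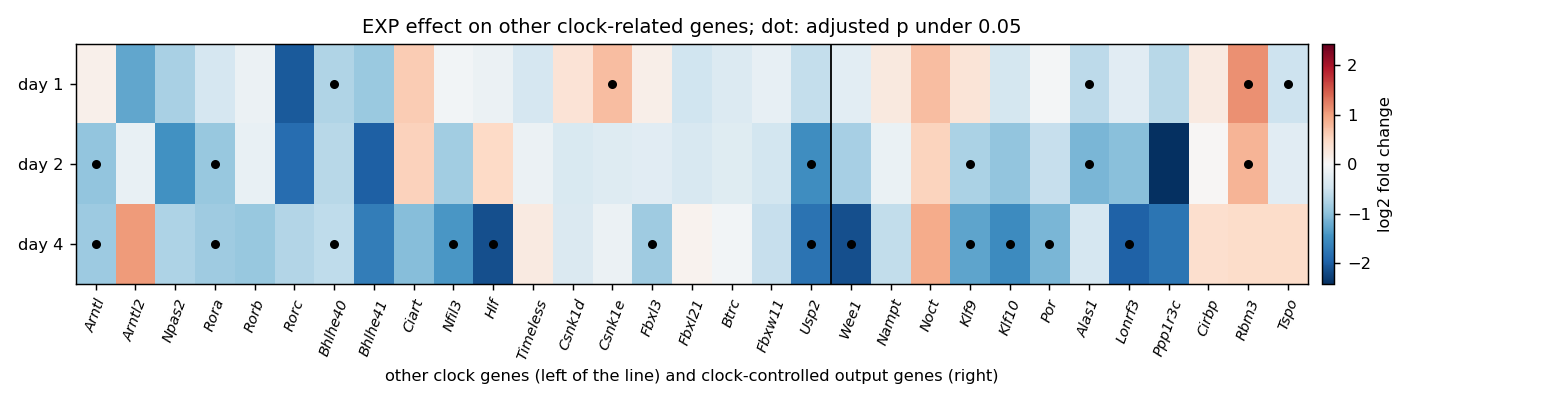
Log2 fold change, EXP minus CTRL, of 19 other clock genes (left of the line) and 12 clock-controlled output genes (right) on the 3 days, in blue where EXP was lower and red where it was higher, with a dot where the adjusted p was under 0.05. Dots gather in the day 4 row, 7 among the other clock genes and 5 among the outputs, all of them on lower levels.

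Of 12 clock-controlled output genes, 1 was called higher and 2 lower on day 1, 1 higher and 2 lower on day 2, and 0 higher and 5 lower on day 4. The 3 called on day 1 are near the 28.5% of all genes called, beside 13.5% on day 2 and 22.6% on day 4, where 8.96% were lower. Klf9, a transcription factor that is also induced by glucocorticoids, fell by 0.77 on day 2 (adjusted p = 0.0453, SE 0.25) and by 1.28 on day 4 (adjusted p = 0.00155, SE 0.24). Alas1, the first enzyme of haem synthesis, fell by 0.63 on day 1 (adjusted p = 0.0290, SE 0.21) and by 1.11 on day 2 (adjusted p = 0.00814, SE 0.26). Rbm3, an RNA-binding protein induced by cold, was higher by 1.10 on day 1 (adjusted p = 0.000200, SE 0.18) and by 0.83 on day 2 (adjusted p = 0.0163, SE 0.22). The output genes therefore included calls in both directions on days 1 and 2. Median log2 fold changes of this list were -0.15, -0.67 and -0.85 on days 1, 2 and 4.

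Glucocorticoids and immediate early signalling are known inducers of Per1, and their target genes were counted beside it. Of 10 glucocorticoid-responsive genes, which include Klf9, 2 were called higher and 3 lower on day 1, 0 and 1 on day 2, and 0 and 4 on day 4, beside the 28.5%, 13.5% and 22.6% of all genes called. The day 2 count lay below that share. Tsc22d3 (GILZ) fell by 1.29 on day 1 (adjusted p = 0.0180, SE 0.39) and by 1.55 on day 4 (adjusted p = 0.0232, SE 0.47), while Fkbp5 was not called on any day and had a log2 fold change of 0.24 (adjusted p = 0.628, SE 0.32) on day 4. Of 10 immediate early genes, 5, 4 and 3 were called lower on days 1, 2 and 4 and 0 were called higher, beside 14.9%, 5.62% and 8.96% of all genes called lower. Fos had log2 fold changes of -0.68, -0.87 and -0.62 (adjusted p of 0.0503, 0.0687 and 0.136) and Egr1 of -0.50, -0.93 and -0.53 (adjusted p of 0.306, 0.169 and 0.367), none of them called. Per1 itself was called only on day 4, as given above, and the part of these signals in its level was not tested.

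Across the 22 libraries, the members paired with each other in part. Per3 and Tef were each other's closest gene among the 17553 other genes tested, with r = 0.77 in log2 CPM. After group means were removed they had r = 0.82, but Tef then ranked 3 for Per3 and Per3 ranked 6 for Tef. Nr1d1 and Nr1d2 had r = 0.69, and Nr1d2 ranked 5 among the genes closest to Nr1d1. For the rest, the closest gene that is no member was Lrrc49 for Clock (r = 0.87), Cyb561d1 for Per1 (0.87), Atp13a1 for Per2 (0.87), Map2k2 for Cry1 (0.96), Clip1 for Cry2 (0.91), Coro1a for Nr1d1 (0.78), AC170187.1 for Nr1d2 (0.80) and Znfx1 for Dbp (0.77). After Tef and Per3 themselves, it was Tymp for Per3 (0.76) and Sez6l for Tef (0.76). The nearest other member had rank 842 for Clock, 977 for Per1 and 1418 for Cry1. These correlations are descriptions over libraries that share group, depth and the library division, and no test was made.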

How the data were processed

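Per the labels' protocols, ultra-low-input libraries were made from the sorted cells and read from both ends, 150 bases each, on an Illumina platform. The authors deposited raw counts per gene, 1 column for each of the 22 libraries, with Ensembl identifiers; 0 columns belonged to other samples. The submitters' processing notes name Trimmomatic and mm39, while the aligner, the counting tool and strandedness are not given in the sources used here. GENCODE M21 named 52081 of 55414 identifiers. M21 and the RefSeq promoters are of GRCm38, so no gene coordinates are given in the authors' build.

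Counts were analysed in R 4.3.3 with edgeR 4.0.16. Libraries were scaled by TMM, genes were kept by filterByExpr (minimum count 10), and glmQLFit (robust) and glmQLFTest were fitted to all libraries with 1 mean per group and 16 residual degrees of freedom. Benjamini-Hochberg adjustment ran within each contrast. Standard errors were derived from the log2 fold change and its F. CPM used TMM-scaled totals, except for the cell type markers and the floor, which used library totals. The log2 CPM used a prior count of 2. The floor of 3 counts covers counting error only, as the reads carried no stated molecular identifiers. No replicates were merged, because their counts differed by more than sampling noise (chi-square 26.7 to 403 per degree of freedom). The library division came from genes with a correlation above 0.9 to Rnf10 after group means were removed. The scripts were first tested on simulated data.

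The members, the gene lists and the markers were chosen with earlier results of these data known. Named genes were all members; Arntl, Npas2, Nfil3, Bhlhe40, Bhlhe41, Ciart and Hlf; any other clock or output gene called on at least 2 days; Tsc22d3, Fkbp5, Fos and Egr1; and, per member, the most correlated other gene. Alternatives were DESeq2 1.42.0, limma 3.58.1 (voom with quality weights), other scalings, filters and thresholds, the library division, the replicate block, single days and each library left out.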

Additional observations from a re-analysis of the deposited data

Results flagged for a closer look

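Nr1d2 reached 148 CPM in replicate 2 of day 1 CTRL, while the other 3 libraries of that group had 62.6 to 72.4 CPM. The gap to the nearest library was 0.885 of the whole range of the group, which is past the limit for 4 libraries. Of 30 combinations of a gene and a group of 4 or 5 libraries, 1 stood out in this way, and chance alone gives about 1.5. Replicate 2 of day 1 CTRL also had the highest Dbp of the series at 5.23 CPM.

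The EXP effect on Per1 differed between days by the joint test of edgeR (adjusted p = 0.0243), a call that was lost with the replicate block (0.107) and on leaving out CTRL replicate 4 (0.0529) or EXP replicate 2 (0.0767) of day 4. The log2 fold changes were 0.19 on day 1, -0.48 on day 2 and -1.62 on day 4. EXP was lower than every CTRL library in 3 of 3 libraries on day 4.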

How the results depend on the processing

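Of the 116 settings run for the 6 called differences between arms, 86 kept the call and 0 changed the direction. For each difference these include the thresholds 0.01 and 0.1, which reuse the main fit. Neither threshold can change a direction, and the threshold 0.1 cannot lose a call. Cry2 on day 2 and Per1 on day 4 were called in each of their settings. The number of members called on day 1 was 1, and it was 0 with the side of the library division as a covariate, at an adjusted p under 0.01, among high-side libraries and among low-side libraries, and 0 to 1 on leaving out each library. The number called on day 4 was 4. It was 2 with no filter on low counts or with the division as a covariate, and 1 at an adjusted p under 0.01, with the libraries of that day only and among low-side libraries, whereas it was 5 with DESeq2 or at an adjusted p under 0.1, with Per3 gained. Leaving out each library gave 1 to 4, with 1 left without EXP replicate 1 or EXP replicate 2 of day 4. The number whose EXP effect differed between days was 1; it was 0 at an adjusted p under 0.01, 2 with limma voom, 2 with DESeq2, and 0 to 3 on leaving out each library, with 0 without CTRL replicate 4 or EXP replicate 2 of day 4 and 3 without EXP replicate 3 of day 4. The number changing over days in CTRL was 0 with edgeR, 1 with limma voom and 1 with DESeq2. The pairwise day differences, an alternative added after seeing the data, numbered 3, and became 5 at an adjusted p under 0.1, 5 with limma voom and 7 with DESeq2. Leaving out each library also changed the number of all genes called. It became 4020 to 4790 on day 1 (5003 in the main fit) and 1630 to 5011 on day 4 (3962). For the EXP effect differing between days it became 893 to 2552 (1517). For the other settings, the number of all genes called is not given here, so those member counts have no share of all genes beside them. The cause of these changes was not tested.

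Among the 24 uncalled differences between arms, 15 changed sign in some setting. With library totals in place of TMM, the log2 fold changes became Clock 0.14, Cry1 0.069 and Nr1d1 0.087 on day 1, Clock 0.0024, Nr1d2 0.37 and Dbp 0.35 on day 2 and Nr1d2 0.18 on day 4. With the side of the library division as a covariate, the log2 fold changes became Cry1 0.30 on day 1, Nr1d2 0.069 on day 4 and Nr1d2 0.056 and Dbp 0.025 for EXP day 4 minus day 1. Among high-side libraries, the log2 fold changes became Clock 0.033, Per1 -0.060, Cry1 0.26, Cry2 0.017, Nr1d1 0.11 and Nr1d2 -0.027 on day 1. Among low-side libraries, the log2 fold changes became Cry1 0.32 on day 1 and Nr1d1 0.12, Nr1d2 0.12 and Dbp 0.71 on day 4. Leaving out each library in turn gave, on day 1, -0.38 to 0.074 for Cry1, -0.13 to 0.40 for Nr1d2 and -0.30 to 0.072 for Nr1d1; for EXP day 4 minus day 1, -0.57 to 0.16 for Nr1d2, -0.38 to 0.28 for Dbp and -0.20 to 0.59 for Nr1d1; on day 2, -0.70 to 0.038 for Dbp, -0.095 to 0.49 for Tef and -0.31 to 0.099 for Nr1d2; on day 4, -0.059 to 0.57 for Per2, -0.59 to 0.14 for Nr1d2 and -0.16 to 0.45 for Tef. Library totals moved the median log2 fold change of all genes to 0.21, 0.49 and 0.36 on days 1, 2 and 4.

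CTRL and EXP libraries share replicate numbers in the labels. Deviations of same-numbered libraries from their group means correlated at -0.067 to 0.16. The correlation exceeded 0.1 only for replicate 1 of day 1 (0.16) and replicates 2 (0.15) and 3 (0.11) of day 4. The numbers were therefore not taken as pairing. With the replicate block, the members called were 1, 1 and 3 on days 1, 2 and 4, and the number whose EXP effect differed between days was 0 (Per1 adjusted p = 0.107). On day 4, CTRL replicates 1, 2 and 3 each correlated best with the EXP library of the same number, a hint from the data alone. The reverse, each EXP library against all CTRL libraries, was not examined. The 3 to 5 libraries in a group, and for Dbp the counts near the floor, limit what could be detected.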
